A study of Rattus norvegicus with 18 samples.

Results

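Choroid plexus epithelium genes were followed through RNA-seq counts of rat brain. They are 10 of the 34873 genes in the count table: Ttr, Kl, Folr1, Kcnj13, Aqp1, Clic6, Slc4a5, Sostdc1, Kcne2 and Tmem72. Each was found by its symbol, and each symbol named 1 entry. The table holds 18 libraries in 3 groups of 6. NC libraries came from wild-type rats whose treatment is listed as not applicable. CO libraries came from wild-type rats that had inhaled carbon monoxide. CLCF1 libraries came from rats that had also inhaled carbon monoxide and carry the label of a CLCF1 knock-down. Per the design text, exposure was 40 min at 1000 ppm followed by 20 min at 3000 ppm, with carboxyhemoglobin above 60%. The same text describes shRNA lentivirus in bone marrow-derived macrophages, depletion of macrophages by liposomes, and the return of macrophages by injection. It does not state whether the NC and CO rats also received liposomes or macrophages, and such a difference between CLCF1 and CO cannot be told apart from the knock-down. Clcf1 itself had 1 to 7 counts in NC, 80 to 118 in CO and 0 to 3 in CLCF1.

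The choroid plexus is a sheet of epithelium around fenestrated capillaries that hangs in the brain ventricles and secretes cerebrospinal fluid. Its cells carry transporters, channels and water pores for that secretion, make carrier proteins and hormones that enter the fluid, and form the barrier between blood and cerebrospinal fluid. The tissue is small and lies only at certain places of the ventricles, so its share of a brain sample depends on which piece is taken. The labels give the tissue as brain, with neither the part of the brain nor the time after exposure.

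The 10 genes were selected on their levels in CLCF1 against CO as well as for their place in this tissue, since an earlier analysis of the same data had shown choroid plexus genes higher in CLCF1. The differences of CLCF1 from CO and from NC, which rest on the same CLCF1 libraries, are therefore given as descriptions, without p-values and without support drawn from them. In bulk tissue, fewer epithelial cells and less RNA per cell cannot be told apart. The amount of choroid plexus in each sample was not measured.

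RefSeq promoters (assembly GRCr8, 250 bases before to 50 after the start site) were matched for 6 of the 10 genes. Those of Ttr, Kcnj13 and Aqp1 are shown, because Ttr varied most between libraries and because Kcnj13 and Aqp1 stood apart from the rest. The first base of the transcript is position 1. Capitals mark TAATCN and TATAAA, the TATA box, each searched on both strands. TAATCN is a loosened form of TAATCC, the motif bound by the homeodomain factors of the Otx family, which direct choroid plexus development. The windows are chr18:12218508-12218807 on the plus strand for Ttr, chr9:95518937-95519236 on the minus strand for Kcnj13 and chr4:85812534-85812833 on the plus strand for Aqp1.
Ttr: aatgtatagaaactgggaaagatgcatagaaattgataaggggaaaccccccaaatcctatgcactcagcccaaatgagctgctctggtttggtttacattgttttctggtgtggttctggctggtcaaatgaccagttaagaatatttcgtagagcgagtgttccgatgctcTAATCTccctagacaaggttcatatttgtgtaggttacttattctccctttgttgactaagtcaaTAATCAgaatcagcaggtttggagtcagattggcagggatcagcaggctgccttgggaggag
Kcnj13: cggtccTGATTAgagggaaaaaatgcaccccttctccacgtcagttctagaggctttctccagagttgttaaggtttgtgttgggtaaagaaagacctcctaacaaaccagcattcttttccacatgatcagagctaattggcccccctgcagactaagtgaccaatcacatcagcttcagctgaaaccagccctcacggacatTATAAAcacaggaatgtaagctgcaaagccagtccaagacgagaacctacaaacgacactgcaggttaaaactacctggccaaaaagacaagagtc
Aqp1: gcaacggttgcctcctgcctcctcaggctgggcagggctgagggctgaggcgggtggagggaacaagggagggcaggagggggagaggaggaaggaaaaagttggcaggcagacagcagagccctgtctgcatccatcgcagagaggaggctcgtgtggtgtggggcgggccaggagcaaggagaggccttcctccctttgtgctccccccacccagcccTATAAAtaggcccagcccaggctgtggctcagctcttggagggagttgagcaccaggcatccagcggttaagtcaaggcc

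The Ttr window holds TAATCN at positions -77 and -12 and no TATAAA. The Kcnj13 window holds TAATCN at -244, on the reverse strand, and TATAAA at -46. Aqp1 has TATAAA at -30 and no TAATCN. Of the 6 windows, 4 hold TAATCN (Ttr, Kl, Kcnj13 and Tmem72), against 22.9% of 33469 RefSeq promoters of the same length, and 2 hold TATAAA, against 14.2%. The full motif TAATCC is in 0 of the 6 and in 7.17% of all promoters. The matches were TAATCA in Kl, Kcnj13 (reverse strand) and Tmem72, and TAATCT and TAATCA in Ttr, so the TAATCN share is not a share of Otx sites. A match is a description of these letters, not a binding site.

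Depth was 15.1 to 20.3 M counts per library. Levels are given as CPM, the counts of a gene per 1000000 counts of the library scaled by TMM, and levels are compared between genes only after division by gene length (CPM per kb). Libraries 3 to 6 of each group stood apart from libraries 1 and 2. A gene was at 0 in library 1 as well as library 2 of its group 42660 times, and 0 of these times was it counted in libraries 3 to 6 there. Whether libraries 3 to 6 are independent samples was not tested, and results are therefore given for all 18 libraries and for libraries 1 and 2 alone. Separate animals are not named in the labels. The p-values therefore cover the spread between libraries, and that spread may be technical. Brain markers were present throughout, with 11600 to 23600 CPM summed over 9 genes such as Snap25 and Gfap, although Cldn5, the endothelial claudin, had no count in any library.

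Summed over the 10 genes, counts were low in NC and CO and high in 5 of the 6 CLCF1 libraries, a sum that Ttr dominates where it is high. The genes took 9.79e-05% to 0.0221% of the counts of an NC or CO library. In CLCF1 they took 0.603% in library 1, 0.00699% in library 2, and 0.376%, 0.385%, 0.0896% and 0.278% in libraries 3 to 6. Library 2 of CLCF1 thus lay within the range of the NC libraries, while the other five lay above every NC and CO library. Single genes departed from the sum: Aqp1 was high in all 6 CLCF1 libraries, and Aqp1 and Kcnj13 were highest of all in NC library 6.

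**Figure D1:**
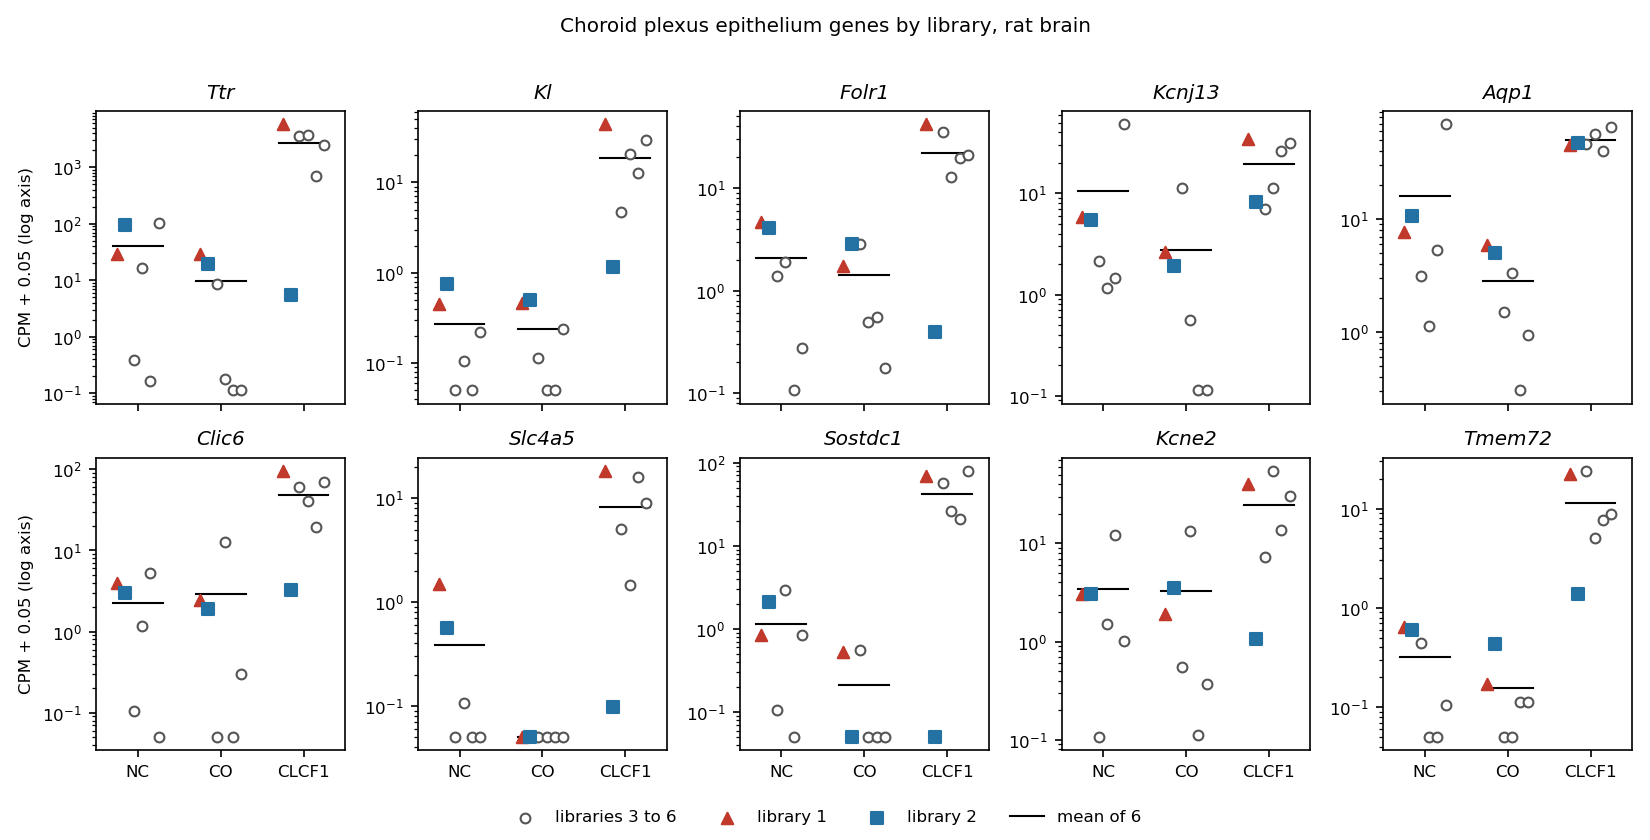
Level of each of the 10 genes in each of the 18 libraries, in TMM-scaled CPM on a log axis, with libraries 1 and 2 of a group drawn apart from libraries 3 to 6. CLCF1 library 2 sits far below CLCF1 library 1 for every gene but Aqp1, which had 45.6 and 47.5 CPM in the pair.

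Ttr encodes transthyretin, the carrier of thyroid hormone and retinol that the choroid plexus secretes into cerebrospinal fluid. In NC it had 28.6, 96.1, 0.338, 16.2, 0.113 and 101 CPM in libraries 1 to 6, and in CO 29.4, 19.0, 8.45, 0.127, 0.0630 and 0.0635 CPM. In CLCF1 it had 5703, 5.40, 3528, 3724, 702 and 2424 CPM. The count behind library 3, 65535, is the highest that 16 bits can hold, and 213 values of the table, 2 of them of Ttr, are above it. Library 2 of CLCF1 was below libraries 1 and 2 of both other groups, whereas each of the other CLCF1 libraries was above every NC and CO library. Per length, Ttr was the highest of the 10 genes in CLCF1, with 3825 ± 2998 CPM per kb (SD, n = 6). Sostdc1 came next at 23.8 ± 17.5 and Folr1 at 20.9 ± 14.4 CPM per kb, and these neighbours did not differ beyond their spread.

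Among the secreted and membrane-bound signalling genes, Kl encodes klotho, the co-receptor of FGF23 whose ectodomain is also shed. Kl had 0 to 0.695 CPM in NC (median 0.112) and 0 to 0.451 in CO (median 0.127). In CLCF1 it had 43.6, 1.12, 4.68, 20.7, 12.8 and 29.4 CPM in libraries 1 to 6. All 6 CLCF1 libraries lay above all NC and CO libraries, the lowest being library 2. Sostdc1, a secreted antagonist of BMP and Wnt ligands, had 0 to 2.86 CPM in NC and 0 to 0.504 in CO, where 4 of 6 libraries had no count. In CLCF1 it had 68.7 CPM in library 1, 0 in library 2, and 57.5, 26.3, 21.1 and 78.6 in libraries 3 to 6. Sostdc1 is the member for which a CLCF1 library had no count at all, and 5 of the 6 were above every NC and CO library. Folr1, the folate receptor that moves folate across the epithelium, had 0.0566 to 4.64 CPM in NC and 0.127 to 2.77 in CO. Its CLCF1 values were 41.5, 0.341, 35.2, 12.6, 19.7 and 21.0 CPM, so library 2 lay inside the NC and CO ranges.

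Among the genes of fluid and ion transport, Aqp1, the water channel of the apical membrane, behaved differently within the CLCF1 group. It had 7.55, 10.5, 3.09, 1.07, 5.26 and 69.1 CPM in NC and 5.80, 4.96, 1.45, 3.30, 0.252 and 0.889 CPM in CO. In CLCF1 it had 45.6, 47.5, 46.0, 56.6, 39.9 and 66.0 CPM. The CLCF1 libraries, library 2 included, lay close together and above every CO library, and NC library 6 lay above all of them. The coefficient of variation of Aqp1 among CLCF1 libraries 3 to 6 was 0.222, against 0.427 to 0.794 for the other nine genes.

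Kcnj13, the inward rectifier Kir7.1 of the apical membrane, had 5.83, 5.37, 2.08, 1.12, 1.41 and 47.8 CPM in NC and 0.0630 to 11.2 in CO. In CLCF1 it had 34.4, 8.08, 7.0, 11.1, 26.2 and 31.2 CPM, so the lowest CLCF1 libraries were below CO library 3 and all were below NC library 6. Kcnj13, Aqp1 and Ttr were each highest among NC libraries in library 6, which had 0.169 CPM of Kl and no count of Clic6 or Slc4a5. Slc4a5, the sodium bicarbonate cotransporter NBCe2, had 22, 11, 0, 1, 0 and 0 counts in NC and no count in any CO library. Its CLCF1 counts were 306, 1, 94, 26, 294 and 167. All 6 CLCF1 libraries therefore lay above CO, library 2 by a single count.

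Kcne2, a small subunit that modulates potassium channels, had 0.0563 to 12.05 CPM in NC (median 2.22) and 0.0630 to 13.3 in CO (median 1.18). In CLCF1 it had 40.2, 1.02, 7.27, 54.3, 13.8 and 30.4 CPM. Clic6, of the intracellular chloride channel family, had 0 to 5.20 CPM in NC and 0 to 12.7 in CO, and 94.8, 3.21, 59.8, 40.2, 19.7 and 69.7 CPM in CLCF1. Both genes had their lowest CLCF1 value in library 2, within the ranges of NC and CO. Tmem72, a membrane protein enriched in choroid plexus, had 0 to 0.596 CPM in NC, 0 to 0.387 in CO and 22.1, 1.31, 23.7, 5.05, 7.69 and 8.83 CPM in CLCF1. Like Kl, it was higher in all 6 CLCF1 libraries than in any NC or CO library.

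**Figure D2:**
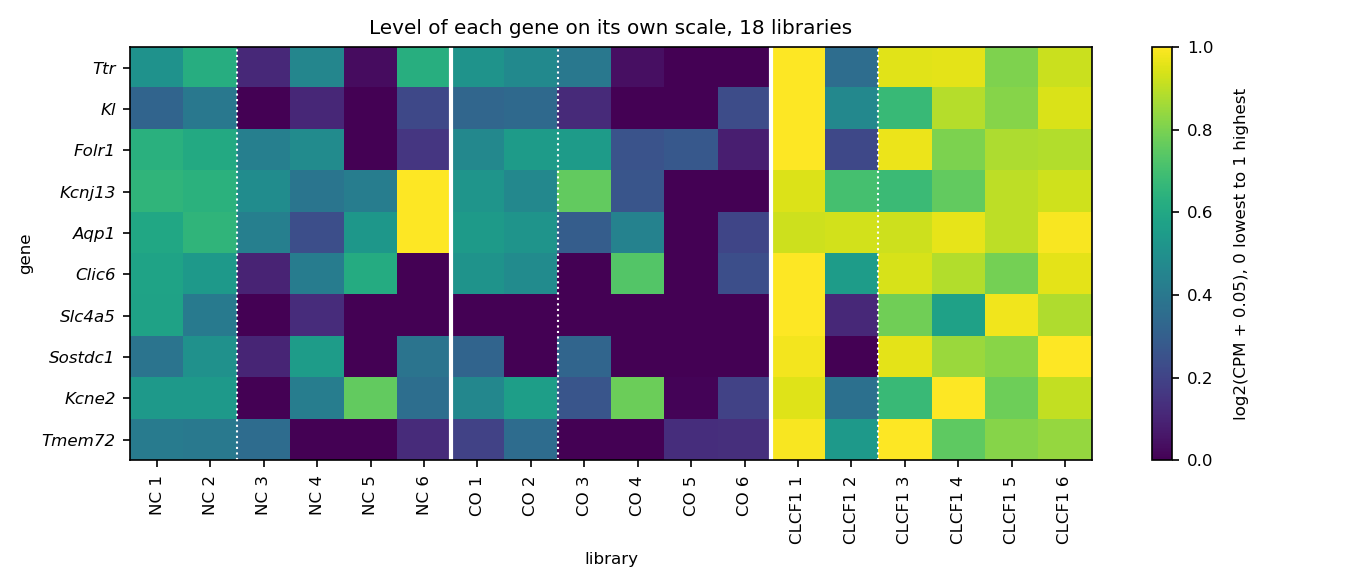
Levels of the 10 genes in the 18 libraries as log2(CPM + 0.05), each gene scaled from 0 in its lowest library to 1 in its highest, with solid lines between groups and dotted lines between libraries 2 and 3. The bright block of CLCF1 is broken at library 2, where Aqp1 alone keeps the level of library 1, and in NC library 6 only Kcnj13 and Aqp1 are at their highest.

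The pair of CLCF1 libraries 1 and 2 showed the widest contrast. Ttr was 1056-fold higher in library 1, Slc4a5 374.7-fold, Folr1 121.8-fold, Kcne2 39.3-fold, Kl 39.0-fold, Clic6 29.5-fold, Tmem72 16.8-fold and Kcnj13 4.26-fold. Sostdc1 had 68.7 CPM against no count, and Aqp1 was 0.961-fold. Thus 9 of the 10 genes were at least 4-fold higher in library 1, a limit chosen after the values were seen, as were 524 of 16566 genes tested (3.16%). Both libraries carry the same group label, so this difference is not a difference between the study's groups.

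Other cell types were read in the same pair of libraries. Of 8 ependymal genes, which mark the ciliated lining of the ventricles, 3 were at least 4-fold higher in CLCF1 library 1, and their summed level was 114 CPM in library 1 and 80.9 in library 2. None of the 10 fibroblast and meningeal genes reached 4-fold, and their sums were 1130 and 1020 CPM. None of the 7 endothelial and mural genes did so, with sums of 122 and 130 CPM. None of the 7 blood genes did so either, with sums of 109 CPM in library 1 and 281 in library 2. Among 16 genes that mark brain regions, 6 did so, and their sums were 1130 and 436 CPM. Markers of the regions thus also differed within the pair, and their part in the choroid plexus values was not tested.

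Further choroid plexus genes, from lists drawn up by role with earlier results known, were counted in that pair. Of 27 genes of the barrier and of epithelial identity, 8 were at least 4-fold higher in CLCF1 library 1, as were 3 of 18 genes of other secreted carriers and hormones. Of 18 genes of fluid secretion such as bicarbonate transporters and carbonic anhydrases, 0 were, and the difference between the lists was not tested. Cldn2, a claudin of leaky epithelia that is not one of the 10 genes, had 42.1 CPM in library 1 and 0.584 in library 2.

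Between CLCF1 libraries 1 and 2, 9 of the 10 genes were higher in library 1. No such common direction was seen between libraries 1 and 2 of NC, where 5 genes were higher in each, or of CO, where 5 were higher in library 1, 4 in library 2, and Slc4a5 was at 0 in both. Among the 18 pairs of libraries 3 to 6 within a group, the larger side held a median of 6 genes, with a range of 5 to 9. Common directions were more frequent in the 24 pairs of library 1 or 2 with one of libraries 3 to 6. There the larger side held a median of 8 genes, with a range of 6 to 10. All 10 genes were higher in NC library 1 than in NC library 3, and likewise in NC library 2. Correlations were taken between genes, over deviations of log2 CPM from the group mean, and describe libraries that share their tissue and preparation. Over libraries 1 and 2 (6 libraries, which amount to 3 pairs), the 45 gene pairs had a median r of 0.959, with a range of -0.28 to 0.997. The 36 pairs without Aqp1 were above 0.5 and the 9 pairs with Aqp1 lay between -0.28 and 0.115. With only 3 library pairs, the CLCF1 pair dominates these values. Over libraries 3 to 6 (12 libraries) the median r was 0.00901, with a range of -0.708 to 0.84, and 5 of 45 pairs were above 0.5.

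**Figure D3:**
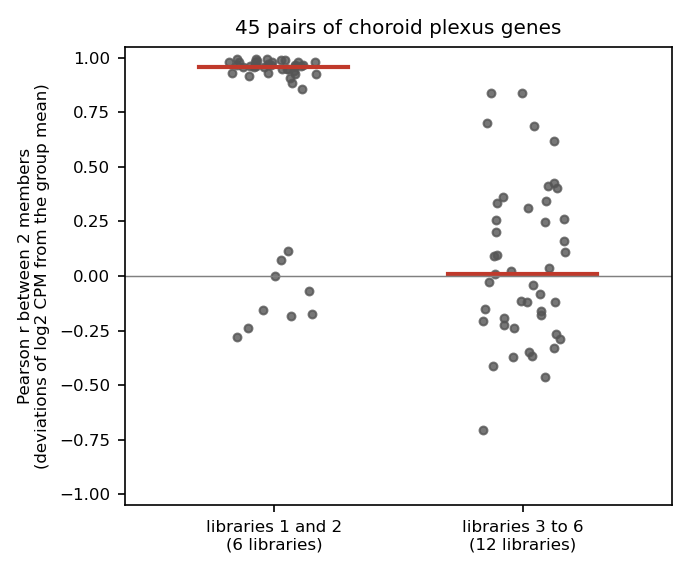
Pearson correlation between the 10 genes over deviations of log2 CPM from the group mean, in libraries 1 and 2 (left, 6 libraries) and libraries 3 to 6 (right, 12 libraries). All pairs are high on the left except those with Aqp1 (median r of 45 pairs 0.959), values that the CLCF1 pair dominates, while on the right signs are mixed (median 0.00901).

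The proportions among the genes also varied. The number of Ttr counts per Folr1 count was 6.17 and 24.1 in NC libraries 1 and 2, and 17.6 and 6.86 in CO libraries 1 and 2. In libraries 3 to 6 it was 0.25, 8.76, 2 and 450 in NC and 3.05, 0.286, 0.125 and 0.5 in CO. In CLCF1 it was 138 in library 1 and 15.9 in library 2, and 100, 295, 35.7 and 116 in libraries 3 to 6. The ratio was thus higher in CLCF1 library 1 than in libraries 1 and 2 of the other groups, and CLCF1 library 2 lay among them. Its spread in CLCF1 was similar in libraries 1 and 2 and in libraries 3 to 6.

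CO libraries had less Aqp1 than NC libraries, and the other nine genes did not pass the test. Aqp1 fell by 2.53 on the log2 scale (SE 0.78, adjusted p = 0.0402 by edgeR's quasi-likelihood test, 6 against 6 libraries). These CO libraries also entered the comparison on which the genes were selected. This call rests on single libraries. It was lost without NC library 6, and without any of CO libraries 3, 4, 5 and 6. In libraries 1 and 2 alone the difference was -0.76 ± 0.28 (SE, adjusted p = 0.999 by edgeR), with 5.80 and 4.96 CPM in CO below 7.55 and 10.5 in NC. Of the 10 genes, 1 was therefore called lower and 0 higher, where 6.4% of the 16581 genes tested were called lower and 6.32% higher in CO. Markers of other cells moved in the same comparison: 6 of 10 fibroblast and meningeal genes fell and 0 rose, 3 of 7 blood genes fell and 0 rose, and 2 of 7 endothelial and mural genes, Pdgfrb and Acta2, fell and 1 rose. Their part in the Aqp1 difference was not tested.

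For the other nine the edgeR estimates of CO against NC were mostly below 0, with wide errors. Ttr differed by -2.08 ± 1.31 (log2, SE, adjusted p = 0.304) and Sostdc1 by -2.67 ± 1.32 (adjusted p = 0.184). Kcnj13 differed by -1.96 ± 0.99 (adjusted p = 0.196), a value that passed once CO library 3 was left out. Kcne2 (-0.07 ± 1.00) and Clic6 (0.39 ± 1.04) were near 0, and leaving out CO library 4 turned Clic6 to -1.26. Slc4a5, with 34 counts in NC and 0 in CO, was at least 10.0-fold lower in CO over the 6 libraries, taking 3 counts over the group as the floor, and did not pass (adjusted p = 0.15 by edgeR), although it passed with DESeq2 (adjusted p = 0.043), which gave no adjusted p for Aqp1. No gene at 0 in CO libraries 1 and 2 was counted in CO libraries 3 to 6, so the zeros there add nothing to the floor of Slc4a5. In libraries 1 and 2 alone Slc4a5 was at least 9.67-fold lower. In those libraries both CO values lay below both NC values for 7 of the 10 genes, against 17.2% of all genes tested, and the other three overlapped. The median over the 10 genes was -1.63 on the log2 scale and -1.08 in libraries 1 and 2, beside 0.00661 over all genes in the full set. Slc4a5, Sostdc1 and Tmem72, which are among the 7 genes, pass the low-count filter only when the CLCF1 libraries are included. The CO libraries also entered the comparison on which the genes were selected. Nothing is therefore read from this share or from the medians.

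Against CO, the CLCF1 libraries had more RNA of each of the 10 genes on average, with sizes that differed widely. Tmem72 was higher by 6.67 ± 0.91 (log2 difference of the edgeR fit, SE), Kl by 6.58 ± 0.94, Sostdc1 by 7.92 ± 1.25 and Ttr by 8.13 ± 1.68. Aqp1 was higher by 4.17 ± 0.82, Clic6 by 4.06 ± 1.08 and Folr1 by 3.96 ± 0.90. Slc4a5, at 0 in all CO libraries, was at least 254-fold higher, again with 3 counts over the group as the floor. Of 14473 genes at 0 in CO libraries 1 and 2, 0 were counted in CO libraries 3 to 6. The zeros of CO libraries 3 to 6 therefore add nothing to this floor, which was at least 88.4-fold over libraries 1 and 2. Kcne2 (2.91 ± 1.03) and Kcnj13 (2.85 ± 1.02) had the smallest differences.

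The fit put 8 of the 10 genes past its threshold, beside 8.63% of all genes tested that were called higher and 8.34% lower in CLCF1 than in CO. All 6 CLCF1 libraries were above all 6 CO libraries for 4 of the 10 genes (Kl, Aqp1, Slc4a5 and Tmem72) and for 3.46% of all genes. As the genes were selected on this difference, nothing is read from these shares. Kl, Slc4a5, Sostdc1 and Tmem72 also passed the filter on low counts through the CLCF1 libraries in which they were high: all 10 genes passed it over the 18 libraries, but only 6 with NC and CO alone. The median over the 10 genes was 5.38 on the log2 scale, beside 0.00183 over all genes.

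With libraries 1 and 2 alone, Aqp1 was higher in CLCF1 than in CO by 3.10 ± 0.29 (log2, SE). The other estimates were positive and had larger errors. Ttr differed by 6.90 ± 3.31, Kl by 5.68 ± 1.78, Tmem72 by 5.52 ± 1.39 and Kcnj13 by 3.26 ± 0.67, and Slc4a5 was at least 88.4-fold higher. Both CLCF1 values lay above both CO values for 6 of the 10 genes, against 16.6% of all genes tested. These were Kl, Kcnj13, Aqp1, Clic6, Slc4a5 and Tmem72. Without libraries 1 and 2, the fit on libraries 3 to 6 gave 10.2 for Ttr, 7.90 for Kl, 5.13 for Aqp1 and 2.66 for Kcnj13.

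**Figure D4:**
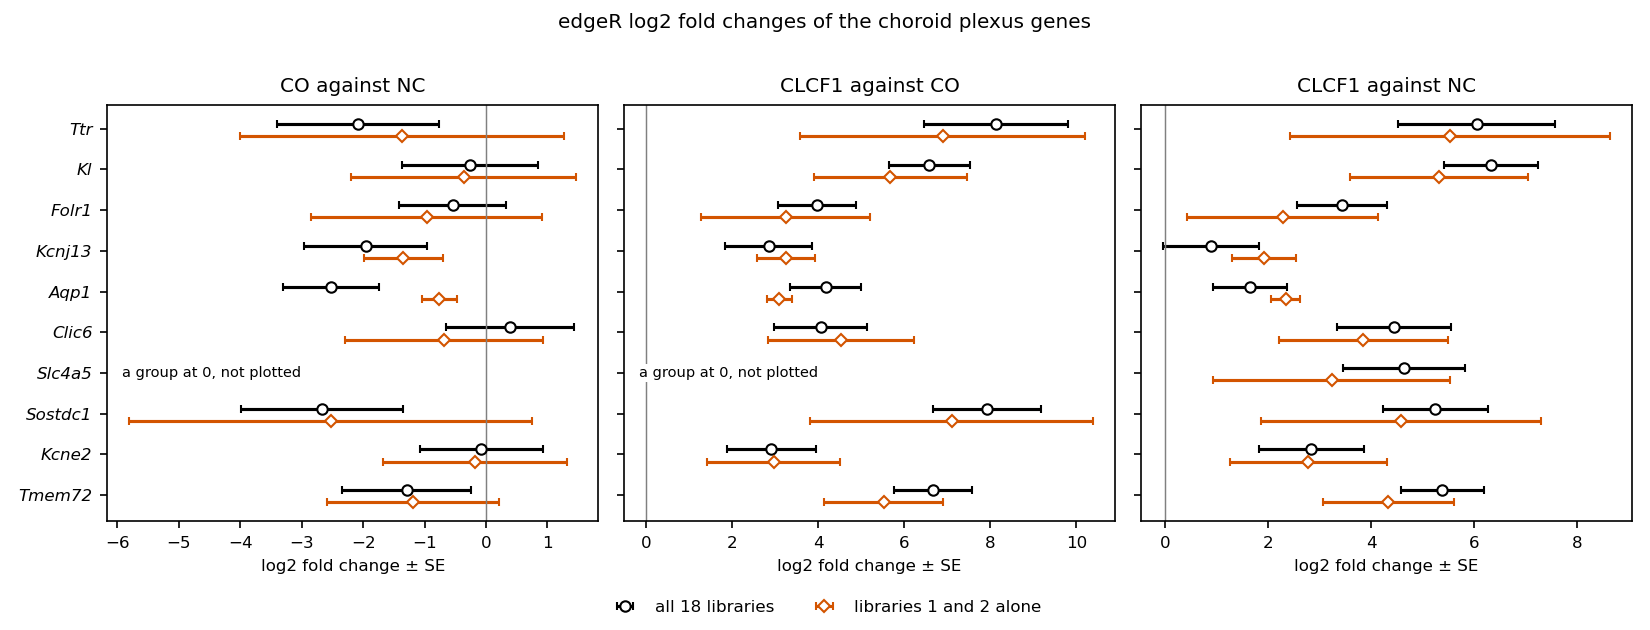
edgeR log2 fold changes with standard errors in the 3 comparisons, for all 18 libraries (circles) and for libraries 1 and 2 alone (diamonds). In CLCF1 against CO, the diamond of Aqp1 has the shortest bar (3.10 ± 0.29), while the other diamonds are also above 0 with longer bars.

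The comparison of CLCF1 with NC shares the CLCF1 libraries with the one above, and the values are again a description. Kl was higher in CLCF1 by 6.32 ± 0.91 (log2, SE), Ttr by 6.05 ± 1.53, Tmem72 by 5.38 ± 0.81 and Sostdc1 by 5.24 ± 1.02. Slc4a5 was higher by 4.64 ± 1.18, Clic6 by 4.44 ± 1.10 and Folr1 by 3.42 ± 0.87. The fit put these 7 genes past its threshold, beside 4.43% of all genes tested that were called higher and 4.84% lower, and nothing is read from that count. Kl and Tmem72 were the 2 genes whose 6 CLCF1 libraries all lay above all 6 NC libraries, as did 2.73% of all genes.

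Kcne2, Aqp1 and Kcnj13 differed least from NC. Aqp1 was higher by 1.64 ± 0.73 (log2, SE), and by 3.16 once NC library 6, with its 69.1 CPM, was left out. Kcnj13 differed by 0.89 ± 0.94, and NC library 6 was again its highest NC value. Kcne2 differed by 2.84 ± 1.02. In libraries 1 and 2 alone, Aqp1 differed by 2.34 ± 0.28. Both CLCF1 values lay above both NC values there for Kl, Kcnj13, Aqp1 and Tmem72, 4 of 10 beside 15.5% of all genes. The median over the 10 genes was 4.54 on the log2 scale and 3.54 in libraries 1 and 2, beside 0.0106 over all genes in the full set.

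Other choroid plexus genes came from the same lists by role. The lists were drawn up after choroid plexus genes had been seen higher in CLCF1 in these data. Their shares and fold changes in comparisons with CLCF1 are therefore descriptions, given without p-values, and no support is drawn from them. In CLCF1 against CO, 12 of 27 barrier and identity genes rose and 0 fell (median log2 difference 0.761), beside 8.63% of all genes that rose. Cldn1, a sealing claudin, rose by 2.34 ± 0.62 (log2, SE) and Msx1, a homeobox factor of the dorsal midline, by 1.98 ± 0.35, both by edgeR. Of 18 other secreted carriers and hormones, 7 rose and 0 fell (median 0.512). F5, coagulation factor V, rose by 6.37 ± 0.82, and Igfbp2, a binding protein of insulin-like growth factors that meningeal cells also make, by 2.01 ± 0.39. F5 had 0 to 14 counts in the NC and CO libraries and 69 to 825 in CLCF1. It thus passed the low-count filter through the CLCF1 libraries in which it was high. Of 18 genes of fluid secretion, 2 rose and 2 fell, near the shares over all genes (8.63% and 8.34%). Slc4a2, the anion exchanger AE2, rose by 0.96 ± 0.25. With libraries 1 and 2 alone, 0 genes of these lists passed in any comparison.

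In CO against NC, 1 secretion gene rose and 0 of 18 fell, 1 secreted gene rose and 4 of 18 fell, and 1 barrier gene rose and 6 of 27 fell, where 6.32% of all genes rose and 6.4% fell. In CLCF1 against NC the counts were 1 up and 1 down, 2 up and 0 down, and 7 up and 0 down in the same order, where 4.43% of all genes rose and 4.84% fell.

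Markers of neighbouring cells also differed between the groups. Beside the counts below, 8.63% of all genes tested were called higher and 8.34% lower in CLCF1 than in CO. Of 8 ependymal genes, 4 rose and 1 fell in CLCF1 against CO, and their sum was 41.8 to 72.7 CPM in CO and 74.6 to 114 in CLCF1, with 70.4 to 83.7 in NC. Of 10 fibroblast and meningeal genes, 4 rose and 0 fell, and their sum was 249 to 939 CPM in CO, 1020 to 1230 in CLCF1 and 1010 to 1530 in NC. The sums of these 2 lists did not overlap between CLCF1 and CO, and overlapped between CLCF1 and NC. As single genes, 3.46% of those tested lay above CO in all 6 CLCF1 libraries, and no such share was taken for sums. Igf2 and Igfbp2, with means of 390 and 336 CPM in NC, belong to the fibroblast and meningeal list and also to the list of secreted carriers. Of 7 endothelial and mural genes, 1 rose and 0 fell, with sums of 69.9 to 181 CPM in CO and 111 to 138 in CLCF1. Of 7 blood genes, 3 rose and 0 fell, and their sums did not overlap, with 7.06 to 59.6 CPM in CO and 109 to 281 in CLCF1, while NC ran from 23.4 to 837. Of 16 region genes, 4 rose and 2 fell. The part of these cells and of the piece of brain taken in the choroid plexus differences was not tested. Aqp1 is also made by other cells, such as endothelium and mesothelium. The endothelial and mural sums of CLCF1 libraries 1 and 2 were 122 and 130 CPM, within the CO sums of 69.9 to 181 and below the NC sums of 174 to 211. The part of those cells in the Aqp1 values was not tested.

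Over the 18 libraries, the genes most like the mean of the 10, among 14300 with a symbol and a mean of at least 1 CPM, were F5 (r = 0.942), LOC679739 (0.94), Nudt7 (0.926), Msx1 (0.9), Pqlc3 (0.874), Nhp2 (0.869), Mfrp (0.865), Hfe (0.863), LOC100359539 (0.861) and Tmem27 (0.854). F5 had 29.0 CPM in CLCF1 library 1 and 3.36 in library 2, and Mfrp, a membrane frizzled-related protein, had 94.3 and 0.681. Over libraries 1 and 2 of each group (6 libraries), the closest were Pdlim2 (0.983), Mrps2 (0.982), Cldn2 (0.98), Mospd1 (0.979), Ace (0.977), Tmem27 (0.976), LOC691807 (0.976), Mdk (0.975), Slc33a1 (0.975) and Hmgb2 (0.972). Tmem27, which had 21.3 CPM in CLCF1 library 1 and 0.0487 in library 2, was in both sets of 10. Among the 10 genes themselves, the r of a gene with the mean of the others ran from 0.715 for Kcnj13 to 0.939 for Kl over the 18 libraries. Group means were not removed for any r of this paragraph. The values thus include the group difference on which the 10 genes were selected, and nothing is read from them.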

How the data were processed

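RNA-seq of 18 rat brain libraries was used, 6 each in NC, CO and CLCF1, grouped by sample title. Per the labels' protocols, RNA came from a column kit and libraries from a SMARTER mRNA-Seq kit. The authors deposited raw whole-number counts per gene, with gene lengths and coordinates. The aligner is not given in the sources used here, nor is the counting tool. GRCm38 and mm10, which are mouse builds, are the ones in the submitters' processing notes, although gene IDs are of rat, so no coordinate of the table is printed. Strandedness is not stated, and reads of overlapping genes cannot be told apart.

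Counts were scaled by TMM and tested with edgeR 4.0.16 in R 4.3.3 (robust quasi-likelihood fit of all 18 libraries). The default low-count filter left 16581 of 34873 genes, over which p-values were adjusted by Benjamini-Hochberg (threshold 0.05). Standard errors were computed from each fold change and its F statistic. The test was checked on simulated counts of independent libraries, with changes placed only in well-counted genes. That check therefore does not cover dependence between libraries or genes of few counts. The members, the lists and the fits on libraries 1 and 2 or 3 to 6 alone were chosen with earlier results of these data known. Named genes were all members, up to 4 passing genes of each other list by smallest p, of which some are shown and some are not reported here, and the 10 genes most like the members' mean. Cldn2 was named after its values were seen. Alternatives were a block for the library number, scaling by DESeq2's size factors or by library size, a stricter filter or none, DESeq2 1.42.0, limma-voom (limma 3.58.1), fits of only 2 groups, and leaving out each library. Replicate pairs differed by far more than sampling noise (chi-square per degree of freedom 42.2 to 76.7), which does not show that they are independent samples. Each library was entered in the fits as 1 sample, and independence was not tested. Promoters came from RefSeq, and the promoters of the other 4 members were not used here.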

Additional observations from a re-analysis of the deposited data

Results flagged for a closer look

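In 8 of 29 sets of 6 libraries (1 gene in 1 group), the highest library lay apart from the others by Dixon's criterion. That criterion assumes normally distributed values, while CPM is bounded at 0 and skewed here. The count of 8 is therefore not set against a rate by chance. In NC library 6, Kcnj13 had 47.8 CPM against 5.83 in the next library, and Aqp1 had 69.1 against 10.5. In NC library 5, Kcne2 had 12 CPM against 3.01. In NC library 1, Slc4a5 had 1.46 CPM against 0.509. In CO library 4, Clic6 had 12.7 CPM against 2.39 and Kcne2 had 13.3 against 3.48. In CO library 3, Kcnj13 had 11.2 CPM against 2.57. In CO library 2, Tmem72 had 0.387 CPM against 0.12, which is 6 counts against 2. Of the 8 values, 6 fell in libraries 3 to 6, and none of those libraries had more than 2 of the 10 genes so raised.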

How the results depend on the processing

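In CLCF1 against CO, 0 of 98 gene estimates under other settings and 0 of 180 with a library left out changed direction, as in CLCF1 against NC (0 of 100 and 0 of 180). The genes were selected on CLCF1 against CO, so nothing is read from these counts or from the members called in these 2 comparisons. Members called were 8 to 9 (CLCF1 against CO), 6 to 7 (CLCF1 against NC) and 0 to 1 (CO against NC) with each library left out in turn. With libraries 1 and 2 alone they were 1, 0 and 0. The Aqp1 call of CO against NC gave way to 0 calls with the library number as a block, limma-voom, only the 2 groups compared, libraries 1 and 2 alone or libraries 3 to 6 alone. DESeq2 gave no adjusted p for Aqp1 and called Slc4a5 lower instead (adjusted p = 0.043). In CLCF1 against NC, limma-voom left Sostdc1, Folr1 and Slc4a5 uncalled, and the replicate block left Slc4a5 uncalled, while both called Aqp1. In CLCF1 against CO, limma-voom left Sostdc1 and Folr1 uncalled. Same-numbered libraries of different groups correlated weakly (r -0.0283 to 0.149). In 11 of 36 comparisons a library had its highest r with its own number. Whether the numbers pair the libraries was not tested. The replicate block called 9, 7 and 0 members. The medians ran from 5.11 to 6.00, 4.16 to 4.92 and -2.07 to -0.889 with each library left out.

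In CO against NC, directions of 4 genes that never passed turned. Clic6 was -0.319 with the block, -0.551 with limma-voom, -0.685 in libraries 1 and 2 and -1.26 without CO library 4, and with each library left out it ran from -1.26 to 0.827 (without NC library 5). Folr1 was 0.143 and Kl 0.151 in libraries 3 to 6, and Kl was 0.0113 with limma-voom and 0.642 without NC library 2, in a range from -0.699 (without CO library 2). Kcne2 was 0.919 without NC library 5 and 0.0477, 0.152, 0.183 and 0.163 without CO libraries 1, 3, 5 and 6, in a range from -1.44 (without CO library 4). The cause was not tested.

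Over all genes, 2110 were called for CO against NC, 2814 for CLCF1 against CO and 1536 for CLCF1 against NC. These became 4291, 5645 and 4292 without the filter, 918, 1436 and 736 in libraries 3 to 6, and 4, 8 and 2 in libraries 1 and 2 (594, 817 and 418 of 16820 at an unadjusted p under 0.05). DESeq2 called 2334 in CLCF1 against NC. With each library left out the ranges were 1672 to 2169, 2427 to 3033 and 1219 to 1798. Several NC and CO values rest on fewer than 10 counts, where depth limits any ratio.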
